A study of Homo sapiens with 8 samples.

Results

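Upstream open reading frames (uORFs) are small open reading frames (smORFs) in the 5′UTR of an mRNA, ahead of the main coding sequence. Of the 24199 smORFs in the Caco-2 Ribo-Seq table, 16911 were classed as uORFs, and 352 of these (2.08%) had a Mean PhyloCSF score above 0 and are described here as conserved uORFs. PhyloCSF compares aligned genomes of related species and scores whether the substitutions in a frame look like those of protein-coding sequence (above 0) or of non-coding sequence (below 0). The score itself uses genome alignments only, while every smORF in the table had first been called from Ribo-Seq reads. The 352 frames were labelled with 266 host genes and fell into 285 clusters of frames that share bases on the same strand. Another 127 uORFs were listed at exactly 0 and 16432 below it. Just inside the limit lay a uORF of BMP2 (IEC_04286, score 0.01) and one of PLEKHO1 (IEC_03678, 0.012). Just outside it lay a uORF of KMT2E (IEC_12627, -0.005) and one of RAD23B (IEC_03243, -0.006).

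Ribosome profiling (Ribo-Seq) sequences the mRNA fragments that ribosomes protect, so counts over a frame report ribosomes on it or close to it. The study profiled Caco-2 cells, a human colorectal adenocarcinoma line that becomes enterocyte-like on differentiation, in 4 groups of 2 libraries each. The groups were undifferentiated cells, differentiated cells without further treatment (control), differentiated cells given taurocholate micelles without lipid, and differentiated cells given lipid micelles with bovine serum albumin, oleic acid and cholesterol. Taurocholate is a bile salt. All libraries came from this 1 cell line in culture, and nothing in the labels says that the 2 libraries of a group came from separate cultures, so the tests measure the spread between libraries, which may be technical.

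Ribosomes scan from the 5′ end of an mRNA, and those that translate a uORF often do not reach the main coding sequence, which makes many uORFs brakes on the protein downstream. Most act through the act of translation and their peptide sequence is not kept between species. A smaller number encode peptides that are kept, either because the peptide stalls the ribosome, as in the polyamine gene AMD1, or because a stable microprotein is made.

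The sequences below are taken from the deposited frames and the hg38 genome. The first set shows conserved uORFs with some of the highest PhyloCSF scores, each with 12 bases of leader, the start codon in capitals and the next 15 bases.
NR2F2 IEC_04642 (chr15:96331021-96331050, plus strand): gactctttccctATGtgtgtgaggcggcgg
WAC IEC_02972 (chr10:28533395-28533424, plus strand): cgacggagggagATGgcccgggagcgccgg
TSC22D4 IEC_14548 (chr7:100478153-100478182, minus strand): ggccctcctgccATGtcggacccagacgtc
CUL3 IEC_13814 (chr2:224585318-224585347, minus strand): ctgcgcagtgagATGtttgtccgtcgccgc
The second set shows uORFs whose counts were higher in differentiated cells, in the same layout.
MAF IEC_15328 (chr16:79600302-79600331, minus strand): gagcccttccttATGcaaagcgcgcagcgg
HPN IEC_00860 (chr19:35041783-35041812, plus strand): tgcggggccaccATGctcctgcccaggcct
LIN54 IEC_15732 (chr4:83010723-83010752, minus strand): gacgaggtgaaaATGgcggatctttcgaaa
ERBB2 IEC_01160 (chr17:39700201-39700230, plus strand): ccagccggagccATGgggccggagccgcag
The third set shows uORFs whose counts were lower in differentiated cells.
RAD23B IEC_05492 (chr9:107283275-107283304, plus strand): cggcgagtcacgATGatggcggccaccatc
ZNRF3 IEC_09318 (chr22:28883582-28883611, plus strand): cacgtggagcagATGaaagggccgcggcgc
ERRFI1 IEC_17263 (chr1:8026182-8026211, minus strand): gccgggacggacATGcgcgggagggcgccg
The frame of AMD1 is so short that all of it is shown, without its stop codon.
AMD1 IEC_03665 (chr6:110874796-110874813, plus strand): ATGgccggcgacattagc

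The conserved uORFs were shorter and richer in GC than the other uORFs, and more of them began with ATG. Their median length was 18 amino acids (range 6 to 133), against 28 in the 16559 other uORFs and 21 in the 5797 other uORFs that began with ATG. ATG was the first codon of 222 of the 352 (63.1%), against 35.0% of the other uORFs. The median GC content was 72.7% against 60.3%. A single exon held 297 of the 352 frames (84.4%), against 65.6% of the other uORFs. These are descriptions of the whole lists, with no test.

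The bases around the start codon also differed. Initiation is favoured by a purine 3 bases before the ATG and a G right after it, the core of the Kozak context. Among 200 conserved uORFs with an ATG placed on an annotated transcript, 67.0% had the purine and 49.5% the G, against 57.2% and 35.7% of 5187 other uORFs. Both were present in 33.5% against 21.9%. In the sequences above, the frames of WAC, ERBB2 and LIN54 carry both, and the frame of MAF carries neither.

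The frames without ATG were not start site calls. Of 106 such conserved uORFs on a transcript, 105 began at the transcript's 5′ end or right after an upstream stop codon, as did 9193 of 9252 other uORFs without ATG. For these frames the position where translation starts was not given. Of the 352 frames, 337 lay wholly in a 5′UTR of GENCODE v44. In the 292 frames that ended ahead of the main coding sequence of their transcript, the median distance to it was 141 bases, against 100 in other uORFs.

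GENCODE v44 lists coding sequence on the same strand at 20 of the 352 conserved uORFs (5.68%) and at 55 of the other uORFs (0.332%). In 16 of the 20 that coding sequence was in the same reading frame, against 12 of the 55. These 16 frames belong to 11 host genes, namely AZIN1 with 4 frames, KMT2E with 3, and TNK2, EBAG9, MBTPS1, MID1, BMPR2, TSC22D4, RPTOR, MAPKAPK5 and APBB2 with 1 each. For 8 of them the annotated coding sequence covered exactly the deposited frame, as for the 69 bases of the TSC22D4 uORF. Apart from that of MBTPS1, a site-1 protease that cleaves sterol regulatory factors, these coding sequences are entered under gene identifiers of their own without a symbol. Of the 118 conserved uORFs with the highest scores (1.76 to 5.38), 13 had same-strand coding sequence, against 2 of the 117 with middle scores and 5 of the 117 with the lowest scores (0.01 to 0.706). Frames that share bases are counted singly here, as with IEC_15613, IEC_20876 and IEC_20836 of AZIN1 (scores 1.91, 3.56 and 3.36). These shares were not tested, and whether GENCODE drew on conservation to list such coding sequence was not examined.

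**Figure D1:**
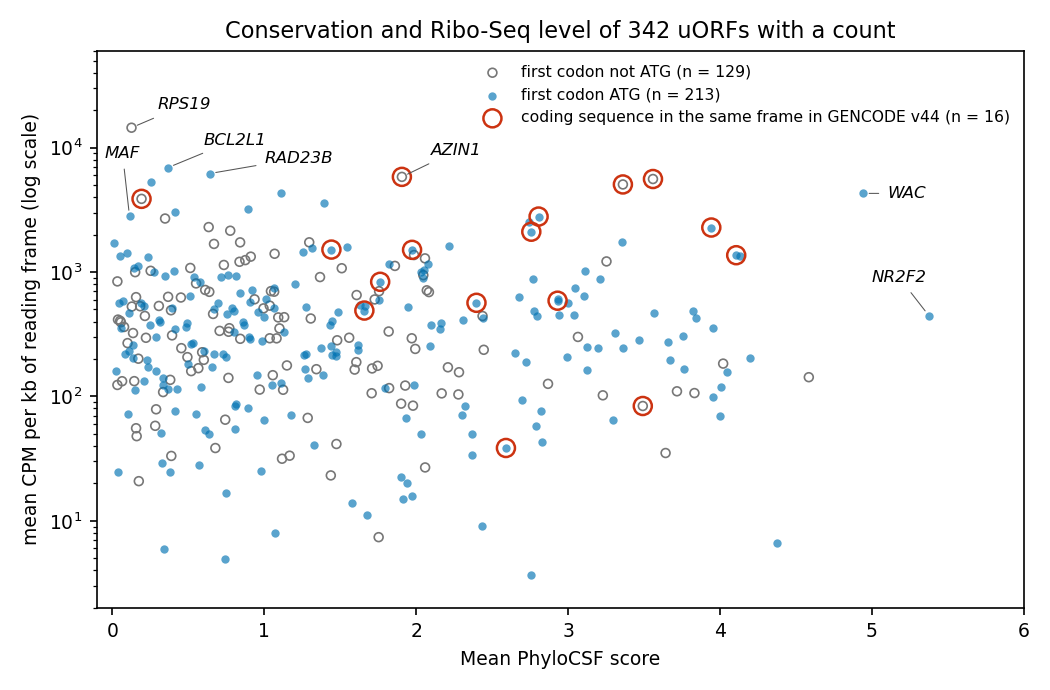
Mean PhyloCSF score (horizontal axis) and mean CPM per kb of reading frame over the 8 libraries (vertical axis, log scale) for the 342 conserved uORFs with a count, 1 point per frame. Filled points began with ATG (213), open points did not (129), and red rings mark the 16 frames with annotated coding sequence in the same frame. The AZIN1 frames stand high on the plot, and the frame with the highest score, NR2F2, has a middling level.

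Total counts over all smORFs ran from 506382 to 884711 per library. A count of 3 in a library equals 3.49 to 5.86 CPM. CPM is the usual depth-scaled unit of sequencing, the count of a frame relative to the scaled total of its library. Summed over the host genes of all smORFs, with 1 smORF per cluster, enterocyte markers (19 of 38 genes with a count) held 1892 to 2229 CPM of all smORF counts in the undifferentiated libraries and 5560 to 5685 in the control libraries. Cell cycle genes (22 of 50) held 4740 to 5357 and 458 to 462. Goblet cell markers (2 of 8) held 2991 to 4287 and 958 to 1061, fibroblast markers (4 of 8) held 65.1 to 87.9 and 5.92 to 10.2, and the enteroendocrine and Paneth cell lists were at 0 throughout. The part of these shifts in the results below was not tested.

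As a class the conserved uORFs took under 2% of uORF counts in every library. They held 1.59% and 1.82% of uORF counts in the undifferentiated libraries, 1.82% and 1.76% in control, 1.79% and 1.91% with micelles without lipid, and 1.80% and 1.83% with lipid micelles. The undifferentiated mean was 1.71% ± 0.165 and the control mean 1.79% ± 0.0417 (SD, n = 2), and the libraries of these groups overlapped (exact permutation test, two-sided, p = 0.667). With 2 libraries against 2, this test cannot go below 0.333. At least 10 counts were found for 185 and 175 conserved uORFs in the undifferentiated libraries, 152 and 202 in control, 160 and 209 with micelles without lipid and 198 and 202 with lipid micelles. These numbers followed library depth, and with every library thinned to 506382 counts they ran from 149 to 164. In all 8 libraries together, 104 conserved uORFs had at least 10 counts in each, and 10 had none in any.

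The highest level was that of AZIN1, whose product binds antizyme and so keeps ornithine decarboxylase, the first enzyme of polyamine synthesis, active. Its uORF IEC_15613 (chr8:102858049-102863878, minus strand, 2 exons, 58 amino acids, score 1.91) had 675 and 630 counts in undifferentiated cells, 455 and 768 in control, 581 and 709 with micelles without lipid and 641 and 893 with lipid micelles. Its mean level over the 8 libraries was 1012 CPM. In CPM both undifferentiated libraries (1061 and 1120) lay above all differentiated ones (889 to 1053), which overlapped among themselves. The log2 difference of control minus undifferentiated was small and did not pass the test (-0.21 ± 0.23, SE, edgeR adjusted p = 0.506). The frame lacks an ATG at its first codon, and 156 of its 174 bases lie in coding sequence that GENCODE v44 lists there. AZIN1 held 5 conserved uORFs, 4 of which share bases, and together they made 16.6% to 23.1% of the counts of conserved uORFs in a library, with shared reads counted in each frame.

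Of the other 5 genes with the highest levels, only MAF, described below, had a called change. RPS19, a protein of the small ribosomal subunit, had a frame of 12 amino acids (IEC_10783, first codon CCC) with 386 and 360 counts in undifferentiated cells and 229 and 337 in control. Its mean level was 520.0 CPM, or 14444 CPM per kb of frame, which was the highest level per length among the frames tested. Ribosomal protein genes have many near-identical pseudogenes, so this value is uncertain. Dividing by length also favours short frames, and this one has 36 bases. The AZIN1 frame, with 1012 CPM over 174 bases, had 5815 CPM per kb. GMCL1, a gene named for its role in germ cells, had a frame of 19 amino acids (IEC_01360) with 92 and 89 counts in undifferentiated cells and 123 and 227 in control, a log2 difference of 0.83 ± 0.25 that missed the 2-fold limit (SE, edgeR adjusted p = 0.0156). BCL2L1, which encodes the survival factor Bcl-xL, had a frame of 11 amino acids (IEC_14760) with 121 and 109 counts in undifferentiated cells and 98 and 132 in control. ZDHHC7, a palmitoyltransferase, had a frame of 35 amino acids in 2 exons (IEC_14977) with 126 and 58 counts and then 76 and 126. Their log2 differences of control minus undifferentiated were -0.082 for BCL2L1 and 0.050 for ZDHHC7, and neither passed the test.

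None of the 6 tested frames with the highest PhyloCSF scores had a called change. The uORF of NR2F2, a nuclear receptor also called COUP-TFII, had the highest score of all (5.38, 30 amino acids). Its counts were 20 and 21 in undifferentiated cells, 17 and 37 in control, 13 and 37 with micelles without lipid and 25 and 50 with lipid micelles, and the log2 difference of control minus undifferentiated was 0.27 ± 0.41 (SE, edgeR adjusted p = 0.641). The uORF of WAC, an adaptor for ubiquitination of histone H2B, scored 4.94 over 8 amino acids. Its counts were 47 and 55 in undifferentiated cells, 45 and 80 in control, 58 and 98 with micelles without lipid and 63 and 107 with lipid micelles. Next by score among the frames tested came those of SSBP3 (4.13), TSC22D4 (4.11), USF2 (4.05) and CUL3 (3.96), with log2 differences from -1.13 to 1.54, none of which passed the test. USF2 is a basic helix-loop-helix transcription factor and CUL3 the scaffold of a family of ubiquitin ligases.

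Differentiation was tested over all smORFs with enough counts (15182), among them 228 of the 352 conserved uORFs. The other 124 included 10 with no count and 114 with too few. A frame was called at an adjusted p under 0.05 and a change of at least 2-fold between control and undifferentiated cells. In differentiated control cells 21 conserved uORFs were called higher (9.21% of those tested, background over all smORFs 17.7%) and 28 lower (12.3%, background 15.6%). Among the 10884 other uORFs tested, 10.9% were called higher and 18.9% lower. The median log2 difference was -0.086 for the conserved uORFs, -0.22 for the other uORFs and 0.011 for all smORFs tested. Ribo-Seq counts alone cannot tell more mRNA from more ribosomes on each mRNA, nor a change in each cell from a change in how many cells carry the transcript.

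**Figure D2:**
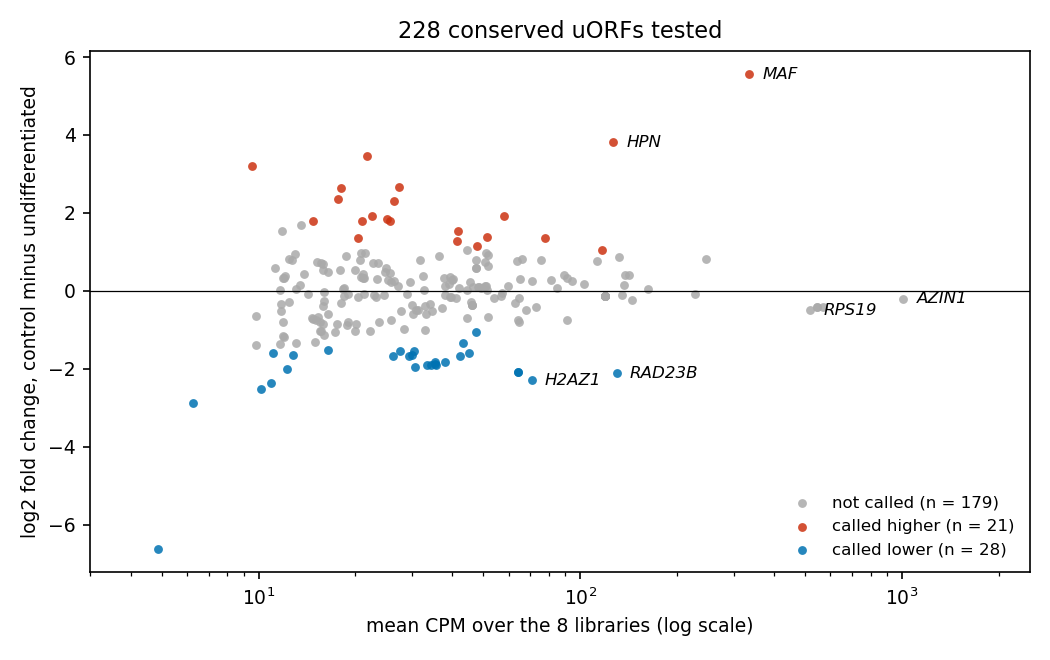
Mean CPM over the 8 libraries (horizontal axis, log scale) and log2 fold change of control minus undifferentiated (vertical axis) for the 228 conserved uORFs tested. Red points were called higher (21), blue points lower (28) and grey points were not called (179). MAF and HPN stand apart among the frames called higher, and the lowest point rests on few counts.

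The largest rise was in the uORF of MAF, a basic leucine zipper transcription factor. IEC_15328 (chr16:79600200-79600319, minus strand, 40 amino acids, score 0.113) had 5 and 6 counts in undifferentiated cells, 204 and 369 in control, 156 and 429 with micelles without lipid and 299 and 401 with lipid micelles. All 6 differentiated libraries lay far above both undifferentiated ones. The level went from 9.26 ± 1.98 to 439 ± 57.4 CPM (SD, n = 2), a log2 difference of 5.55 ± 0.43 (SE, edgeR adjusted p = 7.95e-08). The 1 other tested uORF of MAF, which shares no bases with this frame, changed by 5.39 on the log2 scale.

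HPN encodes hepsin, a serine protease of the cell surface. Its uORF IEC_00860 (8 amino acids, score 0.253) had 13 and 2 counts in undifferentiated cells, 113 and 105 in control, 74 and 103 with micelles without lipid and 109 and 167 with lipid micelles. The groups did not overlap between undifferentiated and differentiated cells, and the log2 difference was 3.82 ± 0.45 (SE, edgeR adjusted p = 6.32e-06). It was 5.57 without the first undifferentiated library and 3.12 without the second, and was called in both fits. All 3 other tested HPN uORFs outside its cluster were called higher, with a median log2 difference of 2.75.

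LIN54 is the DNA-binding subunit of the DREAM complex, which holds cell cycle genes silent. Its uORF IEC_15732 (11 amino acids) had 3 and 4 counts in undifferentiated cells and 25 and 23 in control, a log2 difference of 2.68 ± 0.56 (SE, edgeR adjusted p = 0.00143), while the other LIN54 uORF tested went the other way without a call (-1.02). ERBB2 is a receptor tyrosine kinase of the epidermal growth factor receptor family. Its uORF IEC_01160 has 6 codons and its frame ends 5 bases before the main coding sequence. So close to it, reads of ribosomes at the main start codon cannot be told apart from reads of the uORF. Its counts were 10 and 11 in undifferentiated cells, 40 and 45 in control, 36 and 48 with micelles without lipid and 60 and 62 with lipid micelles. The log2 difference was 1.93 ± 0.37 (SE, edgeR adjusted p = 0.00065), and both other tested ERBB2 uORFs were called higher.

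The last 3 named rises were less firm. FAM174A (IEC_02022) had 1 and 4 counts in undifferentiated cells and 13 and 22 in control (log2 difference 2.65 ± 0.64, SE, edgeR adjusted p = 0.00416), and without the first undifferentiated library its difference was 1.91 and the call was lost (edgeR adjusted p = 0.0629), while without the second it was 3.98 and called. FNDC3A (IEC_07683) had 4 and 9 counts and then 22 and 28 (1.83 ± 0.48, SE, edgeR adjusted p = 0.00723), and without the same library 1.30 and no call (edgeR adjusted p = 0.0942), against 2.63 and a call without the second. An exon on the other strand covers 49 of its 78 bases, and since the strand used in counting is not stated, its reads cannot be told apart from those of that transcript. CREB3L1, a transcription factor held in the endoplasmic reticulum membrane, had 4 and 7 counts and then 32 and 10 at IEC_11169 (1.91 ± 0.73, SE, edgeR adjusted p = 0.0471). Without the first control library its difference was 0.53 with no call (edgeR adjusted p = 0.646), and either undifferentiated library left out also ended the call (1.49 and 2.47). Without the second control library it was 2.78 and called.

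**Figure D3:**
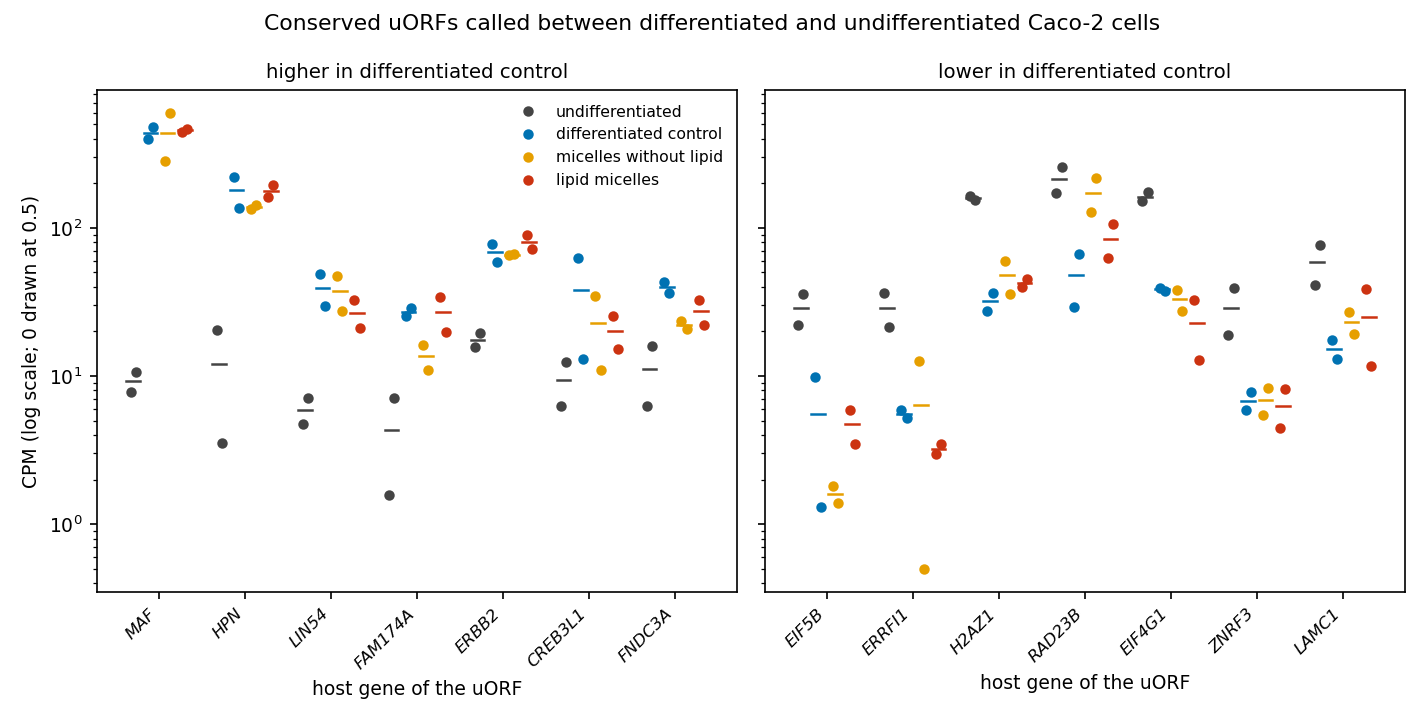
CPM in each library (vertical axis, log scale, 0 drawn at 0.5) of 7 conserved uORFs among the largest rises (left) and 7 among the largest falls (right) between undifferentiated and control cells, by host gene. Only called frames with at least 10 counts in both libraries of the higher group were ranked. Points are single libraries, 2 per group, and short lines are group means. The 6 differentiated libraries lie above both undifferentiated libraries for every rise shown but that of CREB3L1. RAD23B is the fall in which the second library with micelles without lipid reaches back into the undifferentiated range, while the first stays below it.

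Among the falls, those of H2AZ1, RAD23B and EIF4G1 rested on the most counts. H2AZ1 encodes the histone variant H2A.Z. Its frame IEC_14426 (28 amino acids, score 0.033, first codon TGG) had 105 and 87 counts in undifferentiated cells and 14 and 28 in control. With micelles without lipid it had 33 and 26, and with lipid micelles 27 and 39. The log2 difference for control was -2.30 ± 0.32 (SE, edgeR adjusted p = 4.18e-05). Only 11 of the 84 bases of this frame lie in a 5′UTR of GENCODE v44, and it was not placed on an annotated transcript, so its class as a uORF is uncertain. RAD23B binds damaged DNA with XPC in nucleotide excision repair. Its uORF IEC_05492 (7 amino acids) had 109 and 145 counts in undifferentiated cells and 15 and 51 in control, a log2 difference of -2.11 ± 0.39 (SE, edgeR adjusted p = 0.000473). It was -1.64 without the first control library and -2.82 without the second, and was called in both fits.

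EIF4G1 is the scaffold of the complex that recruits ribosomes to capped mRNA. It held 7 conserved uORFs in 1 cluster, and all were called lower, with log2 differences from -2.08 to -1.82. IEC_04461 (chr3:184314567-184314659, plus strand, 31 amino acids, score 2.08, first codon AGA) had 96 and 98 counts in undifferentiated cells, 20 and 29 in control, 21 and 20 with micelles without lipid and 22 and 11 with lipid micelles. IEC_05297, 1 codon shorter, had the same counts in all 8 libraries. The 7 frames share reads, so they amount to 1 observation of that leader. The 1 other EIF4G1 smORF tested, which is not a uORF, was called higher (1.98).

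EIF5B joins the ribosomal subunits at the start codon. Its uORF IEC_01462 had 14 and 20 counts in undifferentiated cells and 5 and 1 in control, a log2 difference of -2.52 ± 0.72 (SE, edgeR adjusted p = 0.0112). The call was lost without the second undifferentiated library (-2.11, edgeR adjusted p = 0.141) or the second control library (-1.49, edgeR adjusted p = 0.192), and without the first control library the difference was -4.23 and called. In the list of 43 translation initiation and elongation factors, EIF4G1 and EIF5B were the only hosts of a conserved uORF, and all 8 of their frames, which lie in only 2 clusters, were called lower (background over all smORFs 15.6%), with a median of -1.89 against 0.011 over all smORFs tested. Among the other uORFs of that list, 16 of 38 tested were called lower and 1 higher (background 15.6% and 17.7%).

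The falls of ERRFI1, ZNRF3 and LAMC1 were each lost without some single libraries. ERRFI1 encodes an inhibitor of the epidermal growth factor receptor. Its uORF IEC_17263 had 23 and 12 counts in undifferentiated cells and 3 and 4 in control (log2 difference -2.36 ± 0.78, SE, edgeR adjusted p = 0.0245), and its call was lost when any 1 of these 4 libraries was left out (edgeR adjusted p 0.0528 to 0.215). ZNRF3, a ubiquitin ligase that removes WNT receptors, had 12 and 22 counts and then 3 and 6 at IEC_09318 (-2.01 ± 0.61, SE, edgeR adjusted p = 0.0161). It was the 1 conserved uORF in the list of 30 gut epithelial regulators, and its call was lost without the second undifferentiated library (-1.40, edgeR adjusted p = 0.234) or either control library (-1.81 and -2.21). LAMC1, the gamma 1 chain of laminin, had 26 and 43 counts and then 9 and 10 at IEC_00672, whose first codon is ACT (-1.95 ± 0.52, SE, edgeR adjusted p = 0.00774). Its call was lost without the second undifferentiated library (-1.42, edgeR adjusted p = 0.102) or the second control library (-1.68, edgeR adjusted p = 0.0726).

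The frames above were ranked 1 per host gene, among those with at least 10 counts in both libraries of the higher group. Another 13 frames of 12 host genes were called higher, with log2 differences from 1.05 to 3.46. Another 20 of 13 host genes were called lower, with -2.87 to -1.06, and these include the other EIF4G1 frames, which share reads. SESN3 (IEC_18422, 3.46), C1orf54 (IEC_03677, 3.21) and NACC1 (IEC_01513, -2.87) changed more than most of the frames above but did not meet the count rule. The following are named with their values known. BMP2, a ligand of the bone morphogenetic protein family, had 2 uORFs called higher, and IEC_04286 had 20 and 7 counts in undifferentiated cells and 26 and 44 in control. Its difference was 1.28 ± 0.40 (SE, edgeR adjusted p = 0.0198), from 0.80 to 2.12 with 1 library left out, and all 5 other BMP2 uORFs tested outside its cluster were called higher. HDAC5, a class II histone deacetylase, had 6 and 13 counts at IEC_22423 and then 30 and 28 (1.53 ± 0.45, SE, edgeR adjusted p = 0.0145), from 1.01 to 2.30 with 1 library left out. MID1, a microtubule-binding ubiquitin ligase, had 11 and 22 counts at IEC_17425 and then 34 and 44 (1.14 ± 0.38, SE, edgeR adjusted p = 0.0267), from 0.66 to 1.84 with 1 library left out, and the other MID1 uORFs tested (2) rose with a median of 5.27. APBB2, an adaptor that binds the amyloid precursor protein, had 41 and 42 counts at IEC_14399 and then 3 and 26 (-1.67 ± 0.46, SE, edgeR adjusted p = 0.0096), from -3.48 to -0.99 with 1 library left out. The calls of BMP2 and APBB2 were lost without the second undifferentiated library, those of HDAC5 and MID1 without the first, those of HDAC5, MID1 and APBB2 without the first control library, and those of BMP2 and MID1 without the second. Among the 15 tested frames with annotated coding sequence in the same frame, MID1 was the 1 called higher and APBB2 the 1 called lower (background over all smORFs 17.7% and 15.6%). The median log2 difference of the 15 was 0.75, against -0.086 for all conserved uORFs tested. They belong to 11 host genes, and those of AZIN1 include frames that share bases, so the 15 are not independent. This difference was not tested.

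The list of polyamine metabolism genes held 7 conserved uORFs, in AZIN1, AMD1 and AZIN2. Of the 6 tested, none was called higher and 1 lower, with a median of -0.41, and 1 of 6 is close to the background of 15.6% called lower over all smORFs. That frame was the uORF of AMD1, which encodes S-adenosylmethionine decarboxylase and whose uORF peptide is known to stall ribosomes when polyamines are high. IEC_03665 (6 amino acids, score 2.74) had 40 and 57 counts in undifferentiated cells, 7 and 29 in control, 7 and 45 with micelles without lipid and 26 and 27 with lipid micelles. The log2 difference of control minus undifferentiated was -1.58 ± 0.52 (SE, edgeR adjusted p = 0.0237), and the first library of control and of micelles without lipid lay well below the second. The call was lost without the second undifferentiated library (-1.19, edgeR adjusted p = 0.18) or the first control library (-1.06, edgeR adjusted p = 0.162), and without the second control library the difference was -2.52 and called. The 5 tested AZIN1 frames ran from -0.85 to -0.21 and none passed the test. The list of 16 genes under uORF control in stress held 1 conserved uORF, that of BCL2L1. The lists of cell cycle, enterocyte, sterol, fatty acid and stress response genes, and of known microprotein hosts, held none.

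The calls differed by the first codon of the frame. Of the 135 tested conserved uORFs that began with ATG, 20 were called higher and 13 lower (14.8% and 9.63%). Of the 93 without ATG, 1 was called higher and 15 lower (1.08% and 16.1%), and these 93 fell into 60 clusters with 1 called higher and 8 lower. The other uORFs had 14.7% higher and 13.9% lower with ATG, and 9.24% higher and 21.1% lower without. The median log2 difference was 0.22 for conserved uORFs with ATG and -0.29 for those without, and 0.037 and -0.35 for the other uORFs. These are descriptions, and the difference by first codon was not tested.

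Frames of the same gene outside the cluster of a called frame gave a second reading of the gene, though not always of the same leader. Of the 21 conserved uORFs called higher, 10 had another tested uORF of that gene elsewhere, and in 8 the median of those moved the same way. In 7 at least 1 of those was itself called higher (frame by frame, 17.7% of all smORFs tested were called higher). BMP2 enters with 2 called frames, each among the other frames of the other, so these are not independent. In 1 case, FAM13B, the other uORF was called lower (-1.63) while the conserved frame was called higher (1.37). Of the 28 called lower, 5 had such a frame, and in 4 the median was lower.

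No conserved uORF was called for micelles in the main fit, which used all 8 libraries, the low-count filter and no replicate term. With micelles without lipid, 0 of 228 were called against control (background over all smORFs 0%), 13 had an unadjusted p under 0.05, and the median log2 difference was 0.043. With lipid micelles, 0 were called against control (background 0%), 14 had an unadjusted p under 0.05, and the median was 0.084. Between lipid micelles and micelles without lipid, 0 were called (background 0%), 6 had an unadjusted p under 0.05, and the median was 0.0093. DESeq2 also called 0 in each of these. The first pair of comparisons share the control libraries.

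**Figure D4:**
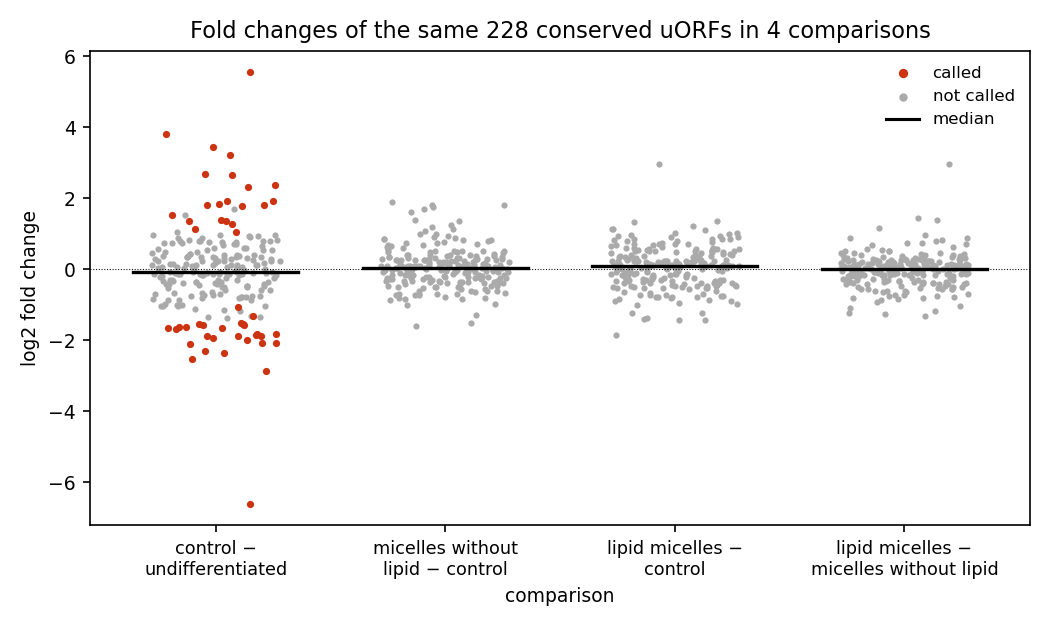
log2 fold changes (vertical axis) of the 228 tested conserved uORFs in the 4 comparisons, 1 point per frame, spread sideways for display, with black lines at the medians. Red points were called, all of them in the comparison of control with undifferentiated cells, and the medians of the micelle comparisons lie between 0.0093 and 0.084. The highest point in both comparisons on the right had at most 2 counts in any of those libraries.

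The smallest p-values with micelles without lipid were those of RAD23B, VTI1B and BCL2L1. The RAD23B frame, which fell on differentiation, had 15 and 51 counts in control, 71 and 157 with micelles without lipid and 42 and 91 with lipid micelles. In CPM that was 47.8 ± 26.2, 173 ± 62.5 and 84.2 ± 30.8 (SD, n = 2), with no overlap between control and micelles without lipid. The log2 difference from control was 1.81 ± 0.39 (SE, edgeR adjusted p = 0.47) without lipid and 0.78 ± 0.40 with lipid micelles (SE, edgeR adjusted p = 0.957). In a fit of the 6 differentiated libraries with a term for replicate number (a replicate block), RAD23B was the 1 conserved uORF called for micelles without lipid (1.85, edgeR adjusted p = 0.00394), and without a low-count filter it was 1 of 4. VTI1B, a SNARE protein of endosomal membranes, had 2 and 17 counts in control, 25 and 40 with micelles without lipid and 15 and 17 with lipid micelles at IEC_13048, with 1.81 ± 0.51 for micelles without lipid (SE, edgeR adjusted p = 0.858). BCL2L1 had 98 and 132 counts in control, 167 and 223 with micelles without lipid and 153 and 200 with lipid micelles. Its levels were 182 ± 14.1, 306 ± 3.93 and 230.1 ± 3.92 CPM (SD, n = 2) and the 3 groups did not overlap, but the log2 difference of 0.75 ± 0.24 for micelles without lipid did not pass (SE, edgeR adjusted p = 0.976). An exon on the other strand covers all 33 bases of that frame. RAD23B and BCL2L1 were picked by their small p-values, so the lack of overlap between their groups is no separate support.

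With lipid micelles the smallest p-values were those of BCL9, FAM13B and TM9SF3. BCL9, a coactivator of beta-catenin, had 10 and 18 counts in control, 5 and 9 with micelles without lipid and 3 and 6 with lipid micelles at IEC_00402, a log2 difference from control of -1.86 ± 0.54 (SE, edgeR adjusted p = 0.957). FAM13B had 14 and 31 counts in control, 9 and 19 with micelles without lipid and 12 and 8 with lipid micelles at IEC_12936. TM9SF3 had 17 and 35 counts in control, 36 and 73 with micelles without lipid and 53 and 68 with lipid micelles at IEC_16905, a difference of 0.98 ± 0.35 for lipid micelles (SE, edgeR adjusted p = 0.957). Between the micelle groups, RAD23B (-1.03) and VTI1B (-1.26) were again among the smallest p-values, with GATAD2A, a subunit of the NuRD complex. GATAD2A had 5 and 8 counts with micelles without lipid and 18 and 23 with lipid micelles at IEC_12403 (1.38 ± 0.52, SE, edgeR adjusted p = 0.999).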

How the data were processed

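Ribo-Seq reads of 8 Caco-2 libraries were aligned to hg38 by the authors (STAR 2.7.11a and HOMER in the submitters' processing notes), and the deposited table holds raw counts per smORF. Strand, exon and multi-mapping settings of that counting are not given in the sources used here, so frames that overlap one another or a gene on the other strand are uncertain. The deposited annotation holds the authors' Mean PhyloCSF score and RibORF score (from read coverage and codon periodicity) for each smORF, and 2 of its entries had no counts.

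Groups came from the sample labels. edgeR 4.0.16 (filterByExpr, TMM, quasi-likelihood test, a term per group, all 8 libraries) was fitted to all smORFs, with Benjamini-Hochberg adjustment over the 15182 tested. Frames were called at adjusted p under 0.05 and at least 2-fold, the limits the study set for its RNA sequencing. The fit was tested on data with known changes. Replicates correlated at 0.883 to 0.920 (Pearson r over smORFs, log2 CPM). Positions were compared with GENCODE v44 and hg38, and all 352 frames matched the genome. Named frames were the 8 largest rises and 8 largest falls with at least 10 counts in both libraries of the higher group, the 6 highest by PhyloCSF and by level, the 3 smallest p per micelle comparison and up to 4 per gene list, 1 per host gene within each of these but the lists, and 2 frames that this rule names are not reported here. The conserved uORFs and the gene lists were chosen with earlier results of these data known. Alternatives covered DESeq2 1.42.0, scaling, filter, replicate block, single libraries, overlap and coding sequence.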

Additional observations from a re-analysis of the deposited data

How the results depend on the processing

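Between control and undifferentiated cells 49 conserved uORFs were called. DESeq2 called 30, all among the 49. Requiring at least 10 counts in every library left 104 frames and 12 calls, and no filter gave 55 calls among 342 frames. Frames above the median score of the class gave 25 calls among 108 tested. The shares called over all smORFs in the alternative fits are not given here. Leaving out 1 library at a time gave 25 to 54 calls, the fewest without the second undifferentiated library, and median log2 differences of -0.086 to 0.17. The replicate block (the replicate number as a term) also gave 49 calls, 48 of them the same. With micelles without lipid, 0 calls became 4 without a filter (RAD23B, TCF20, VEGFB and INAFM2), 1 with the replicate block in the 6 differentiated libraries (RAD23B, 1.85, edgeR adjusted p = 0.00394), and 0 to 3 when 1 library was left out, the 3 (RAD23B, TCF20 and VEGFB) without the first library of that group. With micelles without lipid, TCF20 had 8 and 58 counts and VEGFB 11 and 100, so their calls rest mainly on the second library. INAFM2 had 0 and 0 counts in control and 6 and 13 with micelles without lipid. The labels tie the replicate numbers to no shared batch. Deviations of equally numbered libraries correlated at 0.198, 0.119 and 0.109 among the 3 differentiated groups and at -0.065 to 0.021 with undifferentiated cells. With 2 numbers it is not settled whether the differentiated libraries are paired. The block fit also left out the undifferentiated libraries, and the same 6 libraries were not fitted without the block. What pairing alone does to the RAD23B call was therefore not tested. Without a filter RAD23B was called with no replicate term (1.80, edgeR adjusted p = 3.31e-05). That fit also gave far smaller p-values for MAF and HPN on differentiation, at nearly the same differences. For MAF the edgeR adjusted p was 7.52e-42 against 7.95e-08, and for HPN 7.89e-20 against 6.32e-06. Its p-values are therefore not on the scale of the main fit. Both comparisons of lipid micelles gave 0 calls under every alternative run. The median for lipid micelles against control ran from -0.012 to 0.12 when 1 library was left out.

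The share of uORF counts was 1.24%, 1.33%, 1.37% and 1.34% (undifferentiated, control, micelles without lipid, lipid micelles) without frames that touch annotated coding sequence, and with 1 smORF per cluster it was 1.85%, 2.08%, 2.22% and 2.12%. Conserved uORFs with at least 2 counts numbered 303, 297.5, 295 and 312 on average, and with at least 30 counts 72.5, 68, 70.5 and 86.

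Of the frames named for a rise or fall, MAF, HPN, LIN54, ERBB2, H2AZ1, RAD23B and EIF4G1 kept that call in every alternative that tested them. DESeq2 ended the calls of CREB3L1, EIF5B, ERRFI1, ZNRF3, BMP2 and MID1 (adjusted p 0.0546 to 0.102). No named difference changed sign. The cause of these changes was not tested. Precision was limited by 2 libraries a group and by low counts. Summed over the 8 libraries, the median was 87 counts per frame over all 352 and 160.5 over the 228 tested.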
